A study of Mus musculus with 6 samples.

Results

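Immediate-early and stress-response genes were followed across 3 populations of conventional dendritic cells sorted from mouse spleen. The 42 genes listed are AP-1, ATF, EGR, KLF and NR4A transcription factors, dual-specificity phosphatases, mRNA decay and antiproliferative proteins, stress regulators, heat shock proteins and G protein regulators. A gene was included when an array probe set carried its symbol and no other, which held for 41 of the 42 genes, out of 19938 genes measured in all. Hspa1b had no such probe set, as the one that carries its symbol also names the near-identical Hspa1a. The probe set read as Hspa1a may also pick up Hspa1b.

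Immediate-early genes are switched on within minutes of a stimulus from factors already present in the cell, and their products, such as FOS and JUN, then act on later genes. Dual-specificity phosphatases and mRNA-destabilising proteins such as ZFP36 belong to the same first wave and shut it down again. Heat shock proteins are chaperones induced by the factor HSF1 when proteins misfold. In dendritic cells many of these genes respond to activation, and in sorted cells of any kind they can also respond to tissue dissociation and handling.

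The study hybridised RNA of wild-type splenic cells to Affymetrix arrays, with 2 arrays for each of 3 groups. These were CD24+CD172a+ cDC2, CD24-CD172a+ cDC2 and CD24+ cDC1, where cDC1 and cDC2 are the type 1 and type 2 conventional dendritic cells. All 6 samples were wild type and sorted, with no treatment named; the labels used here give no age, sex or strain, and leave unsaid whether replicate arrays were made from different mice. Hence the p-values measure only how far these arrays spread, which may be technical, and having 2 arrays a group limits the precision.

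Levels are log2 intensities and differences are log2 differences with their standard error from limma. A gene is called when its Benjamini-Hochberg adjusted p over all 19938 genes is under 0.05, and "rose" and "fell" are used of called genes only. Intensities of different genes were not ranked, since probes differ in brightness. Every member had a mean above the 25th percentile of all values (3.93), the lowest being Dusp4 at 5.17 on its dimmest array.

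The sorted populations carried the markers of their labels. All 8 cDC1 markers, Xcr1 and Clec9a among them, fell in both cDC2 populations against cDC1, and all 8 cDC2 markers, Sirpa and Irf4 among them, rose in both, although Mgl2 lay below the 25th percentile in CD24-CD172a+ cDC2. Of the 8 cDC1 markers, Cd8a rose in CD24+CD172a+ against CD24-CD172a+ cDC2 (2.11), while Cd36 and Cadm1 fell (-1.03 and -0.84). The 6 general dendritic cell markers lay above the 25th percentile in all groups. Of 14 monocyte and macrophage markers, 7 fell and none rose in CD24+CD172a+ cDC2 against CD24-CD172a+ cDC2. Their summed intensity was 2128 to 2482 in CD24+CD172a+ cDC2, 4158 to 4380 in CD24-CD172a+ cDC2 and 4791 to 4867 in cDC1, with Mertk below the 25th percentile in each group and Cd5l in both cDC2 groups. This sum is linear, so its brightest marker, Lyz2, weighs most in it. Lyz2 averaged 10.20 log2 in CD24+CD172a+ cDC2, 11.29 in CD24-CD172a+ cDC2 and 11.61 in cDC1. Against cDC1 the monocyte and macrophage markers went both ways, with 3 risen and 5 fallen in CD24+CD172a+ cDC2 while 5 rose (Adgre1 and Csf1r among them) and 3 fell in CD24-CD172a+ cDC2. Plasmacytoid dendritic cell markers ran the other way between the cDC2 groups, with 3 of 8 risen and a summed intensity of 773.7 to 792.5 in CD24+CD172a+ and 510.9 to 511.4 in CD24-CD172a+ cDC2. Their sum was 641.8 to 655.3 in cDC1. Against cDC1, 3 plasmacytoid markers rose and 2 fell in CD24+CD172a+ cDC2, while 2 rose and 3 fell in CD24-CD172a+ cDC2. Of 12 neutrophil markers, S100a8 and S100a9 rose in CD24+CD172a+ against CD24-CD172a+ cDC2. The neutrophil sums were 336.8 to 364.7 in CD24+CD172a+ cDC2, 233.7 to 244.6 in CD24-CD172a+ cDC2 and 227.7 to 240 in cDC1. None of the 8 B cell, 8 T cell, 8 NK cell and 4 erythroid markers was called by limma between the cDC2 groups (unadjusted p under 0.05 for 1, 1, 1 and 0). Against cDC1, 3 B cell markers rose and 1 (Ms4a1) fell in CD24+CD172a+ cDC2, while 2 rose and Ms4a1 fell in CD24-CD172a+ cDC2. Here the summed B cell intensity was 317.6 to 359.9 for CD24+CD172a+ cDC2, 343 to 383.9 for CD24-CD172a+ cDC2 and 263.5 to 305.3 for cDC1. In bulk samples fewer cells of a type and less RNA per cell cannot be told apart. The part of admixed cells in the results below was not tested, and neither was that of the sort itself, as all 6 samples were sorted cells.

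Of the 41 members, 15 were called in at least 1 of the 3 comparisons, with 22 calls in all. CD24-CD172a+ cDC2 had the highest mean for 24 members (58.5%), against 34.3% of all genes. CD24+CD172a+ cDC2 were highest for 7 members (17.1%, against 27.2% of all genes) and lowest for 16 (39%, against 34.4%). The cDC1 were highest for 10 (24.4%, against 38.5%) and lowest for 20 (48.8%, against 34%). By contrast, 5 members (12.2%) were lowest in CD24-CD172a+ cDC2, against 31.6% of all genes.

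Between the cDC2 populations, 3 members fell in CD24+CD172a+ cDC2 (Atf3, Ier3 and Btg1) and none rose, where 1.46% of all genes (0.808% higher and 0.652% lower) and 2.47% of genes brighter than the median gene were called. At an unadjusted p under 0.05 the count was 10 members (24.4%, against 14% of all genes and 19.5% of those brighter than the median). The median member differed by -0.19, against -0.01 for all genes. Above 0 lay 11 of 41 members (26.8%), against 47.5% of all genes and 59.6% of those brighter than the median. In 18 members both CD24+CD172a+ arrays lay below both CD24-CD172a+ arrays, where 22.8% of all genes did so, and in 2 both lay above (21.4% of all genes). The size of this shift rested on single arrays. The median member differed by -0.04 when CD24+CD172a+ replicate 1 was left out and by -0.05 when CD24-CD172a+ replicate 2 was, but by -0.24 without CD24+CD172a+ replicate 2 and by -0.25 with CD24-CD172a+ replicate 1 left out. Leaving out any of these 4 arrays left no member called by limma, with 7 to 11 members at an unadjusted p under 0.05 (10.7% to 13.9% of all genes).

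Against cDC1, 4 members rose and 4 fell in CD24+CD172a+ cDC2, a called share of 19.5% beside 13.6% of all genes (7.11% higher and 6.52% lower) and 23.9% of genes brighter than the median. In CD24-CD172a+ cDC2, 8 members rose and 3 fell, or 26.8% beside 15.7% of all genes (6.83% higher and 8.91% lower) and 27.6% of the brighter ones. The called shares of the members thus lay near those of genes brighter than the median. The median member differed by 0.01 in CD24+CD172a+ cDC2 and by 0.23 in CD24-CD172a+ cDC2. Members above 0 numbered 21 and 30 of 41 (51.2% and 73.2%), against 45.3% and 50.2% of all genes and 49.2% and 43.8% of the brighter ones. In CD24+CD172a+ cDC2, 17 members lay above both cDC1 arrays on both arrays and 15 lay below both (23.5% and 28.6% of all genes). In CD24-CD172a+ cDC2 these counts were 23 and 6 (25% and 27.4% of all genes). Without cDC1 replicate 1 or 2, 3 members were called in CD24+CD172a+ cDC2, and 3 and 4 in CD24-CD172a+ cDC2. Leaving out CD24-CD172a+ replicate 1 or 2 gave 3 and 4 calls in that population. These 2 comparisons share their cDC1 arrays, so their values are given side by side and are not independent.

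**Figure D1:**
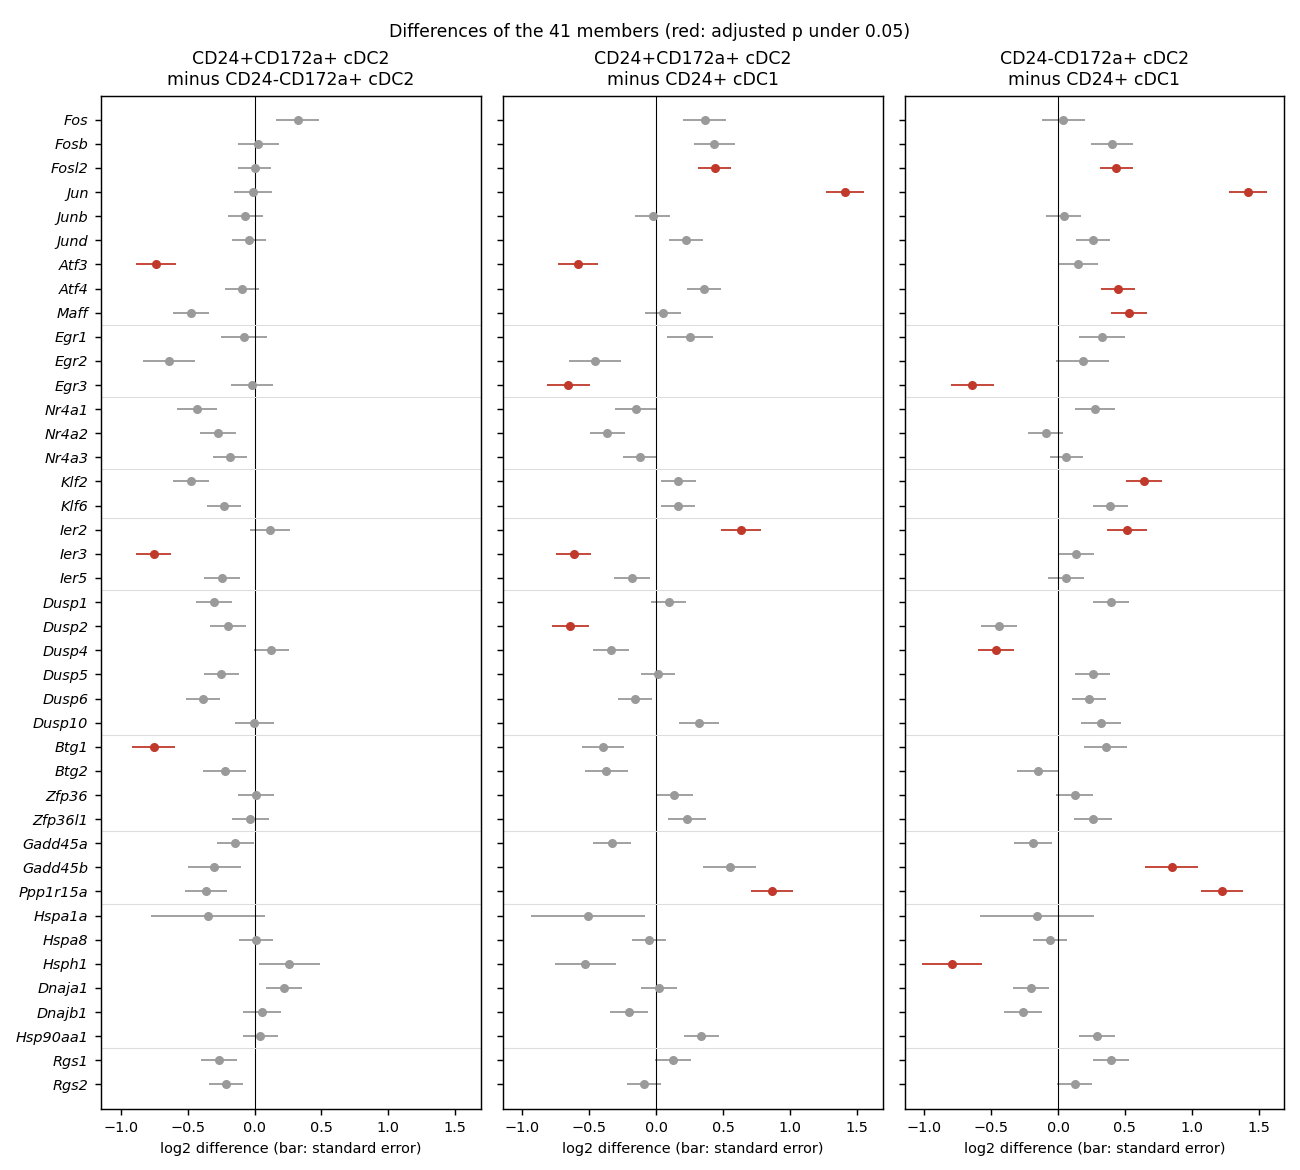
Log2 differences of the 41 members (rows, grouped by role) in the 3 comparisons (panels), with bars for the standard error and red for an adjusted p under 0.05. The called members lie below 0 between the cDC2 populations (3), on both sides of it for CD24+CD172a+ cDC2 against cDC1 (4 and 4), and mostly above it for CD24-CD172a+ cDC2 against cDC1 (8 and 3).

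Jun, a core subunit of the AP-1 transcription factor, showed the largest difference of any member. Its level was 10.51 and 10.83 in CD24+CD172a+ cDC2, 10.69 and 10.68 on the CD24-CD172a+ arrays, and 9.27 and 9.25 in cDC1. Both cDC2 populations lay above cDC1 on every array and overlapped each other. Jun rose by 1.41 ± 0.14 in CD24+CD172a+ cDC2 (2.66-fold, adjusted p = 5.66e-05) and by 1.42 ± 0.14 in CD24-CD172a+ cDC2 (2.68-fold, adjusted p = 5.53e-05) against cDC1. Both calls held in each of the 6 fits with 1 array left out and under the 6 other alternatives. Between the cDC2 populations Jun differed by -0.01 ± 0.14 (adjusted p = 0.982).

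Ppp1r15a, which encodes GADD34, the phosphatase subunit that reverses the translation block of the integrated stress response, was the other member whose calls held throughout. It stood at 9.41 and 9.77 in CD24+CD172a+ cDC2, 9.85 and 10.06 on the CD24-CD172a+ arrays, and 8.67 and 8.78 in cDC1. None of the 3 populations overlapped another. Against cDC1 it rose by 0.86 ± 0.15 in CD24+CD172a+ cDC2 (adjusted p = 0.00328) and by 1.23 ± 0.15 in CD24-CD172a+ cDC2 (adjusted p = 0.000305). Both calls were kept with each of the 6 arrays left out in turn. The gap between the cDC2 populations, -0.36 ± 0.15, was not called (adjusted p = 0.331).

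The promoters of Jun and Ppp1r15a, the members with the smallest adjusted p, and of Hsph1, the heat shock gene called below, are shown because their motifs bear on the usual routes of induction of these genes. They come from RefSeq (GRCm38.p6), run 5′ to 3′ from 250 bases before to 50 bases after the transcription start, and have motif matches in capitals. Jun lies at chr4:95052173-95052472 (minus strand), Ppp1r15a at chr7:45526219-45526518 (minus strand) and Hsph1 at chr5:149636287-149636586 (minus strand).
Jun: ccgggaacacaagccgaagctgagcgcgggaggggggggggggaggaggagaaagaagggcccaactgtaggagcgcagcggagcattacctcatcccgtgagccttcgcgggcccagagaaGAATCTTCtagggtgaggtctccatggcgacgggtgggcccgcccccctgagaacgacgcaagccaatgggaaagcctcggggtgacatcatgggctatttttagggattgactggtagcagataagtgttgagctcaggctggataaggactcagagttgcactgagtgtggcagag
Ppp1r15a: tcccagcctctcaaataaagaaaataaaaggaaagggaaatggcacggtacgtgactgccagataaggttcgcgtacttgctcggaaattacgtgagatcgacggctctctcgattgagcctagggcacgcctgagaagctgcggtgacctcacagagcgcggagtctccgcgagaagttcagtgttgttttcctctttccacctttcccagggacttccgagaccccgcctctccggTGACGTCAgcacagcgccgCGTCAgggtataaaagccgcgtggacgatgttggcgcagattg
Hsph1: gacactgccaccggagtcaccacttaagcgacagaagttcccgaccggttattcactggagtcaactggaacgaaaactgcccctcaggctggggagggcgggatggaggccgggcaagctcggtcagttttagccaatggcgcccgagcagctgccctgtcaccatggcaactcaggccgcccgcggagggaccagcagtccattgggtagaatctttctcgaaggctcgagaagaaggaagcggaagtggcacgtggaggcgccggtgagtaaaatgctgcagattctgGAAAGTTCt

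The motifs, searched on both strands, were the cyclic AMP response element TGACGTCA and its shorter core TGACG, the AP-1 site TGANTCA, the heat shock element GAANNTTC, and the CArG box bound by SRF. A full cyclic AMP response element, which holds 2 overlapping copies of the core, lies at bases -12 to -5 from the start of Ppp1r15a, with a further core at bases 8 to 12 after it. Jun has a match to GAANNTTC at bases -128 to -121, and Hsph1 has one at bases 42 to 49. The heat shock element was searched in this order only, so runs with GAA and TTC swapped were neither counted nor put in capitals. The printed Hsph1 promoter holds such a run before the transcription start. The other motifs were searched by exact letters too, so runs that differ by 1 letter were neither counted nor put in capitals. The printed Jun promoter holds TGACATCA, 1 letter from the full cyclic AMP response element, before the transcription start. Of the 41 members, 34 had a promoter in the table, 44 promoters in all. The full element stood in promoters of 4 genes (Btg2, Dusp1, Maff and Ppp1r15a) and in 1.79% of all 32851 promoters of the same length. The core stood in 20 genes (20.8% of all promoters), the heat shock element in 5 (7.86%), the CArG box in 3 (1.63%) and the AP-1 site in 1 (7.81%). Genes with several promoters count once if any holds the motif, and a match is a run of letters, not a shown binding site.

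Among the other AP-1 and ATF factors, Fosl2, which encodes the FOS-family subunit FRA-2, was higher in both cDC2 populations. Its level was 7.67 and 7.75 in CD24+CD172a+ cDC2, 7.69 and 7.73 on the CD24-CD172a+ arrays, and 7.27 on both cDC1 arrays. Fosl2 rose by 0.44 ± 0.12 in each cDC2 population against cDC1 (adjusted p = 0.0396 in CD24+CD172a+ and 0.0366 in CD24-CD172a+ cDC2). Neither call survived the loss of any compared array (adjusted p = 0.111 to 0.184 in CD24+CD172a+ and 0.0926 to 0.150 in CD24-CD172a+ cDC2). The call in CD24-CD172a+ cDC2 also ended without either CD24+CD172a+ array (adjusted p = 0.0548), which enters only the shared estimate of spread.

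Atf3, a stress-induced factor that represses inflammatory genes, was lowest in CD24+CD172a+ cDC2. It read 10.51 and 10.80 there, 11.48 and 11.30 in CD24-CD172a+ cDC2, and 11.16 and 11.32 in cDC1. The CD24+CD172a+ arrays lay below all other arrays, which overlapped each other. Atf3 fell by 0.73 ± 0.15 against CD24-CD172a+ cDC2 (adjusted p = 0.0436) and by 0.58 ± 0.15 against cDC1 (adjusted p = 0.0241). The first call ended with any of the 6 arrays left out (adjusted p = 0.0651 to 0.264). The second ended without CD24+CD172a+ replicate 1 (0.193), cDC1 replicate 1 (0.0601) or cDC1 replicate 2 (0.156).

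Maff and Atf4 were called in CD24-CD172a+ cDC2 against cDC1 only, and their differences between the cDC2 populations were not called (adjusted p = 0.138 and 0.801). Maff, a small MAF protein, read 8.12 and 8.14 in CD24+CD172a+ cDC2, 8.47 and 8.74 on the CD24-CD172a+ arrays, and 8.10 and 8.06 in cDC1. It rose in CD24-CD172a+ cDC2 by 0.53 ± 0.14 (adjusted p = 0.0231), a call lost without CD24-CD172a+ replicate 2 (0.135) or cDC1 replicate 1 or 2 (0.0943 and 0.112). Atf4, the main effector of the integrated stress response, read 9.85 and 9.96 in CD24+CD172a+ cDC2, 9.96 and 10.03 on the CD24-CD172a+ arrays, and 9.57 and 9.53 in cDC1. Its rise of 0.45 ± 0.13 in CD24-CD172a+ cDC2 (adjusted p = 0.0364) was not called with any of the 6 arrays left out (0.0527 to 0.156). Both cDC2 populations lay above cDC1 on each array for Atf4, and CD24+CD172a+ cDC2 gave an adjusted p of 0.102.

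Fos, Fosb, Junb and Jund were called in none of the comparisons. Fos, the classical immediate-early gene, read 8.12 and 8.49 in CD24+CD172a+ cDC2, 7.96 and 8.01 on the CD24-CD172a+ arrays, and 7.79 and 8.10 in cDC1. It was the one AP-1 factor with both CD24+CD172a+ arrays above both CD24-CD172a+ arrays (21.4% of all genes), at an adjusted p of 0.407. Fosb and Jund had every cDC2 array above both cDC1 arrays, with adjusted p from 0.105 to 0.353. This order held for 23.5% of all genes in CD24+CD172a+ cDC2 and for 25% in CD24-CD172a+ cDC2. Junb spanned 7.91 to 8.11 over all 6 arrays.

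**Figure D2:**
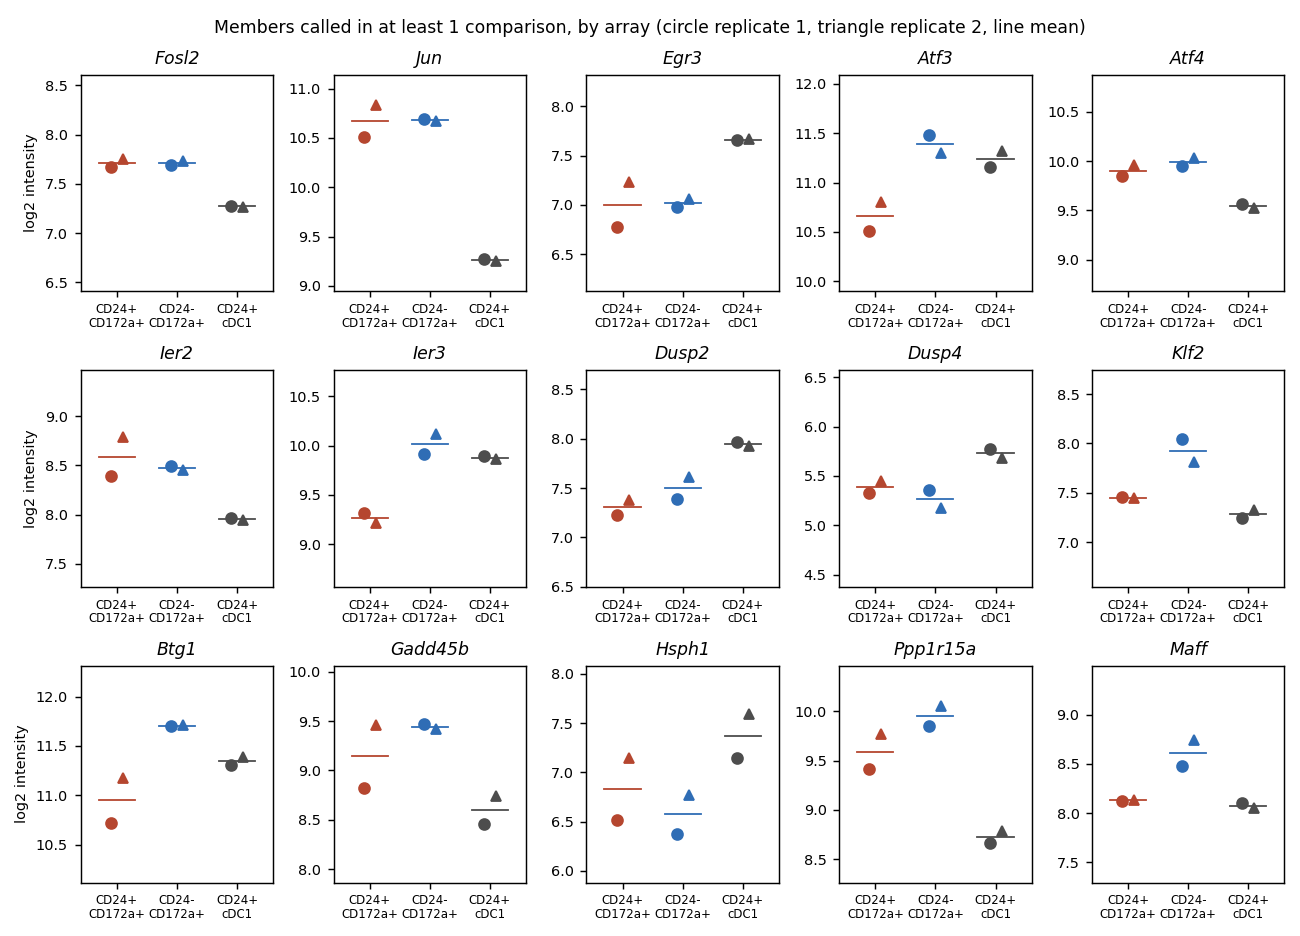
Log2 intensity on each array (circle replicate 1, triangle replicate 2, line for the mean of 2) of the 15 members called in at least 1 comparison, by population; each panel spans the same range of log2 units around its own centre. Jun, Fosl2, Atf4, Ier2, Ppp1r15a, Gadd45b, Klf2 and Maff lie higher on all cDC2 arrays than on the cDC1 arrays, and Egr3, Dusp2 and Dusp4 lie lower. Atf3, Ier3 and Btg1 lie lowest on the CD24+CD172a+ arrays.

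The EGR factors, zinc finger proteins induced by growth and antigen receptor signals, differed among themselves. Egr3 read 6.78 and 7.23 in CD24+CD172a+ cDC2, 6.98 and 7.06 on the CD24-CD172a+ arrays, and 7.66 and 7.67 in cDC1, which lay above all cDC2 arrays. It fell by 0.66 ± 0.16 in CD24+CD172a+ cDC2 (adjusted p = 0.0186) and by 0.64 ± 0.16 in CD24-CD172a+ cDC2 (adjusted p = 0.0192) against cDC1. The call in CD24+CD172a+ cDC2 ended without CD24+CD172a+ replicate 1 (a difference of -0.43, adjusted p = 0.157) or cDC1 replicate 1 or 2 (0.0879 and 0.0892). That in CD24-CD172a+ cDC2 ended with any compared array left out (0.0554 to 0.0921). Egr2 was lowest in CD24+CD172a+ cDC2, at 10.02 and 10.33, against 10.74 and 10.90 in CD24-CD172a+ cDC2 and 10.33 and 10.94 in cDC1, but was not called (adjusted p = 0.163 and 0.183). Egr1 read 7.70 and 8.24 in CD24+CD172a+ cDC2, 7.99 and 8.11 on the CD24-CD172a+ arrays, and 7.70 and 7.73 in cDC1, with no call.

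The NR4A genes encode orphan nuclear receptors induced by the same signals, and none of the 3 was called by limma in any comparison (unadjusted p under 0.05 for 1, 1 and 0 of them). All 3 had both CD24+CD172a+ arrays below both CD24-CD172a+ arrays, an order that 22.8% of all genes had. Nr4a1 read 10.96 and 11.35 in CD24+CD172a+ cDC2 and 11.53 and 11.63 in CD24-CD172a+ cDC2 (adjusted p = 0.230), with 11.26 and 11.36 in cDC1. Nr4a2 and Nr4a3 gave adjusted p of 0.391 and 0.561 between the cDC2 populations. Over all 6 arrays Nr4a3 spanned 11.80 to 12.07.

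Klf2, a factor that holds lymphocytes and myeloid cells in a resting state, was highest in CD24-CD172a+ cDC2. It read 7.45 on both CD24+CD172a+ arrays, 8.04 and 7.81 in CD24-CD172a+ cDC2, and 7.25 and 7.32 in cDC1, so that no 2 populations overlapped. It rose by 0.64 ± 0.13 in CD24-CD172a+ cDC2 against cDC1 (adjusted p = 0.00778), a call lost without CD24-CD172a+ replicate 1 (0.0579) or cDC1 replicate 1 (0.0623). Klf6 had the same order, at 10.21 and 10.26 in CD24+CD172a+ cDC2, 10.44 and 10.48 on the CD24-CD172a+ arrays, and 9.99 and 10.16 in cDC1, without a call (lowest adjusted p = 0.0680). Each single step of this order held for 22.8% to 25% of all genes.

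The IER genes, short early response genes, split in direction. Ier2 read 8.39 and 8.78 in CD24+CD172a+ cDC2, 8.49 and 8.45 on the CD24-CD172a+ arrays, and 7.97 and 7.95 in cDC1. It rose by 0.63 ± 0.15 in CD24+CD172a+ cDC2 (adjusted p = 0.0170) and by 0.51 ± 0.15 in CD24-CD172a+ cDC2 (adjusted p = 0.0409) against cDC1. The first call ended without CD24+CD172a+ replicate 2 (0.145) or cDC1 replicate 1 or 2 (0.0810 and 0.0861), the second without any compared array (0.105 to 0.152). Ier3, which modulates apoptosis and ERK signalling, read 9.31 and 9.21 in CD24+CD172a+ cDC2, 9.91 and 10.12 on the CD24-CD172a+ arrays, and 9.90 and 9.86 in cDC1. Its CD24+CD172a+ arrays lay below all others. Ier3 fell by 0.75 ± 0.13 against CD24-CD172a+ cDC2 (adjusted p = 0.0258) and by 0.62 ± 0.13 against cDC1 (adjusted p = 0.00981). The first call ended with any compared array left out (0.0566 to 0.187), the second without CD24+CD172a+ replicate 2 (0.0810) or cDC1 replicate 1 or 2 (0.0665 and 0.0507). Ier5 stood at 7.58 on both CD24+CD172a+ arrays, below the other 4 (7.71 to 7.94), and was not called. Both CD24+CD172a+ arrays lay below both CD24-CD172a+ arrays for 22.8% of all genes, and below both cDC1 arrays for 28.6%.

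Dual-specificity phosphatases switch MAP kinases off. Dusp2, a nuclear phosphatase of immune cells, read 7.23 and 7.38 in CD24+CD172a+ cDC2, 7.39 and 7.62 on the CD24-CD172a+ arrays, and 7.96 and 7.92 in cDC1. It fell by 0.64 ± 0.14 in CD24+CD172a+ cDC2 against cDC1 (adjusted p = 0.00919), a call lost without CD24+CD172a+ replicate 1 (0.0842) or cDC1 replicate 1 (0.0638). In CD24-CD172a+ cDC2 its adjusted p was 0.0527. Dusp4, of the same nuclear class, read 5.33 and 5.45 in CD24+CD172a+ cDC2, 5.35 and 5.17 on the CD24-CD172a+ arrays, and 5.77 and 5.69 in cDC1. It fell by 0.46 ± 0.13 in CD24-CD172a+ cDC2 against cDC1 (adjusted p = 0.0379), which no fit with 1 array left out kept (0.0516 to 0.198), nor did cyclic loess scaling.

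The other 4 phosphatases were not called. Dusp1, which acts on p38 and JNK, read 11.88 and 12.07 in CD24+CD172a+ cDC2, 12.24 and 12.32 on the CD24-CD172a+ arrays, and 11.83 and 11.94 in cDC1. The CD24-CD172a+ arrays were above the rest for Dusp1, Dusp5 and Dusp6, the last 2 being phosphatases of ERK. Both CD24-CD172a+ arrays lay above both CD24+CD172a+ arrays for 22.8% of all genes, and above both cDC1 arrays for 25%. The smallest adjusted p among Dusp1, Dusp5 and Dusp6 was 0.0734, for Dusp1 in CD24-CD172a+ cDC2 against cDC1. Dusp10 had every cDC2 array above both cDC1 arrays (7.43 to 7.70, against 7.13 and 7.35). This order held for 23.5% of all genes in CD24+CD172a+ cDC2 and for 25% in CD24-CD172a+ cDC2.

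Btg1, an antiproliferative partner of the mRNA deadenylation machinery, read 10.72 and 11.18 in CD24+CD172a+ cDC2, 11.70 and 11.71 on the CD24-CD172a+ arrays, and 11.31 and 11.39 in cDC1. None of the populations overlapped. It fell by 0.75 ± 0.16 in CD24+CD172a+ cDC2 against CD24-CD172a+ cDC2 at an adjusted p of 0.0499, and no fit with 1 array left out kept this call (0.0628 to 0.269, with a difference of -0.53 without CD24+CD172a+ replicate 1). Beside Atf3, Ier3 and Btg1, the 3 genes that fell here, stands the lower monocyte and macrophage marker sum of CD24+CD172a+ cDC2 given above. The part of these markers in the differences was not tested. Btg2, Zfp36 and Zfp36l1, the last 2 of which bind AU-rich mRNA and hasten its decay, were not called, with Zfp36 between 11.38 and 11.67 on all arrays.

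Gadd45b, which couples stress to p38 and JNK signalling, read 8.83 and 9.47 in CD24+CD172a+ cDC2, 9.47 and 9.42 on the CD24-CD172a+ arrays, and 8.45 and 8.74 in cDC1. Both cDC2 populations lay above cDC1. It rose by 0.85 ± 0.20 in CD24-CD172a+ cDC2 (adjusted p = 0.0139), a call lost without CD24-CD172a+ replicate 1 or 2 (0.0693 and 0.0526) or cDC1 replicate 1 (0.117). In CD24+CD172a+ cDC2, whose 2 arrays differed by 0.64, its adjusted p was 0.105. Gadd45a spanned 6.12 to 6.57 and was not called. Rgs1 and Rgs2, which speed the shut-off of G protein signals, had both CD24+CD172a+ arrays below both CD24-CD172a+ arrays (11.96 and 12.07 against 12.16 and 12.40 for Rgs1) and no call. Of all genes, 22.8% had this order.

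Between CD24+CD172a+ and CD24-CD172a+ cDC2, 47.5% of all genes and 59.6% of genes brighter than the median had a mean difference above 0. Of the 6 heat shock genes measured, 5 did so. The 6 heat shock differences were small, from -0.35 to 0.26 with a median of 0.05, and none was called. Against cDC1, 2 of 6 were above 0 in CD24+CD172a+ cDC2 and 1 of 6 in CD24-CD172a+ cDC2. The shares there were 45.3% and 50.2% of all genes, and 49.2% and 43.8% of the brighter ones. Hsph1, a nucleotide exchange factor for HSP70, read 6.52 and 7.15 in CD24+CD172a+ cDC2, 6.38 and 6.77 on the CD24-CD172a+ arrays, and 7.14 and 7.59 in cDC1. It fell by 0.79 ± 0.23 in CD24-CD172a+ cDC2 against cDC1 (adjusted p = 0.0386), the one heat shock call in the fit without a term for replicate number. That call ended without CD24-CD172a+ replicate 1 (-0.59, adjusted p = 0.221) or cDC1 replicate 2 (-0.57, adjusted p = 0.242), and under cyclic loess scaling. Hspa8, the constitutive HSP70, spanned 11.91 to 12.07 over all 6 arrays, and its 3 probe sets differed by at most 0.07 in either direction in any comparison. Hsp90aa1, the inducible HSP90, had every cDC2 array above both cDC1 arrays (11.47 to 11.65, against 11.23 and 11.32) and no call on any of its 3 probe sets. This order held for 23.5% of all genes in CD24+CD172a+ cDC2 and for 25% in CD24-CD172a+ cDC2. Dnaja1 and Dnajb1, HSP40 partners of HSP70, were not called, and the second probe set of Dnaja1 gave 0.20 in CD24-CD172a+ cDC2 against cDC1 where the brightest gave -0.20.

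Hspa1a, the inducible HSP70, varied more between the 2 arrays of each population than between populations. It read 6.71 and 7.95 in CD24+CD172a+ cDC2, 7.16 and 8.21 on the CD24-CD172a+ arrays, and 7.39 and 8.29 in cDC1 (replicates 1 and 2). Its means were 7.33 ± 0.88 in CD24+CD172a+ cDC2, 7.68 ± 0.74 in CD24-CD172a+ cDC2 and 7.84 ± 0.63 in cDC1 (SD, n = 2 arrays), and no comparison called it in the fit without a term for replicate number (adjusted p = 0.564 to 0.878). The replicate 2 array was the higher one in all 3 populations, by 1.24, 1.05 and 0.89. Hsph1 was higher on the same arrays by 0.63, 0.39 and 0.45.

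This array difference extended to other members. In CD24+CD172a+ cDC2, 36 of 41 members were higher on the replicate 2 array (87.8%, against 52.5% of all genes), with a median difference of 0.15 between the arrays. In CD24-CD172a+ cDC2 the count was 32 (78% against 49.7%, median 0.10), and in cDC1 it was 25 (61% against 48%, median 0.06). The median of all genes was within 0.013 of 0 in each population. Of the 41 members, 19 were higher on the replicate 2 array of all 3 populations (46.3%, against 14% of all genes), and none was higher on the replicate 1 array of all 3 (13.6% of all genes). Among these 19 were Fos, all 3 EGR factors, Nr4a1, Dusp1, Ppp1r15a and 5 of the 6 heat shock genes. The members share their arrays, so these counts describe 6 arrays and carry no test. The labels do not say what an equal replicate number stands for, and whether sort or handling moved these values was not tested.

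**Figure D3:**
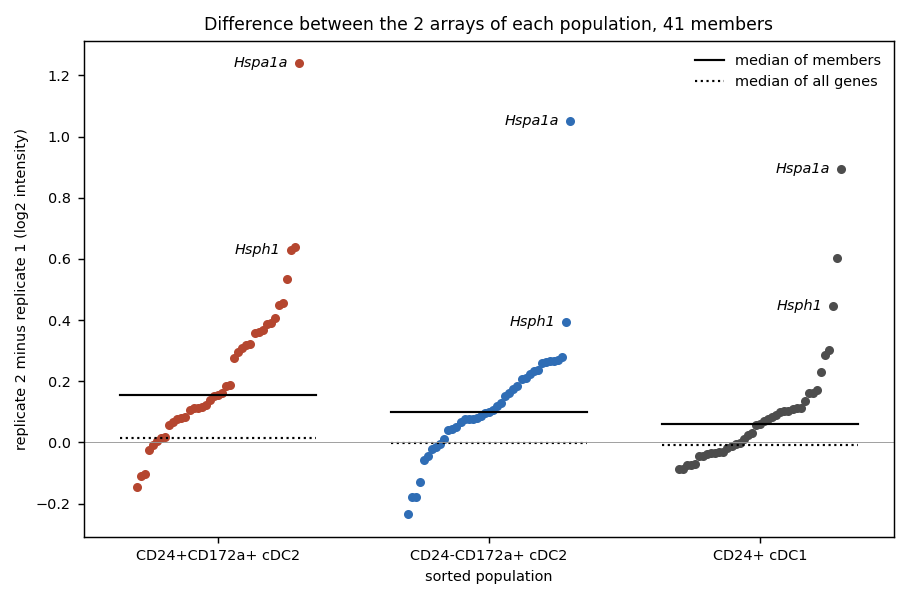
Log2 intensity on the replicate 2 array minus that on the replicate 1 array for each of the 41 members (points, sorted by value), by population, with the median of the members (solid) and of all genes (dotted). The medians of the members are 0.15 in CD24+CD172a+ cDC2, 0.10 in CD24-CD172a+ cDC2 and 0.06 in cDC1, and Hspa1a is the highest point in each.

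Other genes of the same pathways were taken from 7 further lists. Of all genes, 1.46% were called between the cDC2 populations. Against cDC1 the share was 13.6% in CD24+CD172a+ and 15.7% in CD24-CD172a+ cDC2. It was 23.9% and 27.6% of genes brighter than the median gene. Among other early response genes, 36 of 38 were measured. Of these, 15 rose and 5 fell in CD24+CD172a+ cDC2, and 18 rose and 2 fell in CD24-CD172a+ cDC2, both against cDC1 (55.6% called in each). Their median differences were 0.46 in CD24+CD172a+ and 0.49 in CD24-CD172a+ cDC2. Ptgs2, the inducible cyclooxygenase, averaged 10.77 ± 0.24 in CD24+CD172a+ cDC2, 11.25 ± 0.20 in CD24-CD172a+ cDC2 and 6.87 ± 0.21 in cDC1 (SD, n = 2). It rose by 3.91 ± 0.17 in CD24+CD172a+ cDC2 and by 4.39 ± 0.17 in CD24-CD172a+ cDC2 (adjusted p = 1.21e-07 and 5.52e-08). The kinase gene Plk2 rose by 2.22 ± 0.16 in CD24+CD172a+ cDC2 and by 2.23 ± 0.16 in CD24-CD172a+ cDC2 (adjusted p = 4.70e-06 and 4.25e-06). Between the cDC2 populations 4 of the 36 fell and 1 rose, led by Sgk1, a kinase of ion transport (-1.04 ± 0.17, adjusted p = 0.0174), a call lost without CD24+CD172a+ replicate 1 or 2 or CD24-CD172a+ replicate 2 (0.164, 0.0838 and 0.0901).

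The factors that switch on immediate-early genes, with EGR partners, were all 13 measured. Of these, 5 rose and 1 fell in CD24+CD172a+ cDC2 against cDC1, and 4 and 2 in CD24-CD172a+ cDC2 (46.2% called in each). Elk3, an ETS partner of SRF, averaged 8.44 ± 0.05 in CD24+CD172a+ cDC2, 7.99 ± 0.07 in CD24-CD172a+ cDC2 and 6.03 ± 0.22 in cDC1 (SD, n = 2). It rose by 2.40 ± 0.14 in CD24+CD172a+ cDC2 (adjusted p = 1.19e-06) and by 1.96 ± 0.14 in CD24-CD172a+ cDC2 (adjusted p = 5.10e-06). Foxo3, a forkhead factor, rose by 1.38 in CD24+CD172a+ cDC2 and by 1.41 in CD24-CD172a+ cDC2. Of 14 MAP kinase pathway genes, 3 rose and 3 fell in each cDC2 population against cDC1 (42.9% called in each). Mapkapk3, a kinase downstream of p38, rose by 1.53 ± 0.13 in both, and Map2k6, a kinase that activates p38, fell by 1.32 ± 0.14 in CD24+CD172a+ cDC2 and by 1.09 ± 0.14 in CD24-CD172a+ cDC2. Between the cDC2 populations limma called none of the genes of these 2 lists (unadjusted p under 0.05 for 2 and 3).

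Of 18 other AP-1 and ATF family genes, 2 rose and 3 fell in CD24+CD172a+ cDC2 against cDC1, and 4 rose and 1 fell in CD24-CD172a+ cDC2. The called share, 27.8% in each, lay near that of genes brighter than the median (23.9% and 27.6%). Jdp2, a repressor of AP-1, fell by 1.32 ± 0.14 in CD24+CD172a+ cDC2 (adjusted p = 8.62e-05) and by 0.95 ± 0.14 in CD24-CD172a+ cDC2 (adjusted p = 0.000901), while Jun, with which it can dimerise, rose in both. Among 11 other dual-specificity phosphatases, 2 rose and 1 fell in CD24+CD172a+ cDC2 (27.3% called). In CD24-CD172a+ cDC2, 2 rose and 3 fell (45.5% called). Dusp22 was up by 0.88 in CD24+CD172a+ cDC2 and by 1.24 in CD24-CD172a+ cDC2. Neither list had a gene called by limma between the cDC2 populations, nor had the 2 lists that follow (unadjusted p under 0.05 for 2, 3, 6 and 4 genes).

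Among 30 other chaperones and their partners, 3 rose and 9 fell in CD24+CD172a+ cDC2 against cDC1 (40% called). Above 0 lay 13 of 30 (43.3%), against 45.3% of all genes and 49.2% of those brighter than the median. In CD24-CD172a+ cDC2, 3 rose and 13 fell (53.3% called). Here 11 lay above 0 (36.7%), against 50.2% of all genes and 43.8% of the brighter ones. Dnajc3, a chaperone of the endoplasmic reticulum, fell by 1.61 ± 0.14 in CD24+CD172a+ cDC2 and by 1.29 ± 0.14 in CD24-CD172a+ cDC2. Hsp90b1, the HSP90 of that compartment, fell by 1.14 ± 0.13 in CD24+CD172a+ cDC2 (adjusted p = 0.000187). Dnajb4, an HSP40, rose, and stood at 7.22 ± 0.03 in CD24+CD172a+ cDC2, 7.60 ± 0.26 in CD24-CD172a+ cDC2 and 4.40 ± 0.64 in cDC1 (SD, n = 2). Its rises of 2.82 ± 0.25 in CD24+CD172a+ and 3.20 ± 0.25 in CD24-CD172a+ cDC2 may be lower bounds, since cDC1 lay within 1 SD of the 25th percentile. Of 15 genes of the unfolded protein and integrated stress responses, 1 rose and 3 fell in CD24+CD172a+ cDC2 (26.7% called). In CD24-CD172a+ cDC2, 2 rose and 3 fell (33.3% called). These shares lay near the 23.9% and 27.6% of genes brighter than the median. Hmox1, the heme-degrading enzyme, which is also a macrophage marker, fell by 2.35 ± 0.17 in CD24+CD172a+ cDC2 and by 1.69 ± 0.17 in CD24-CD172a+ cDC2.

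**Figure D4:**
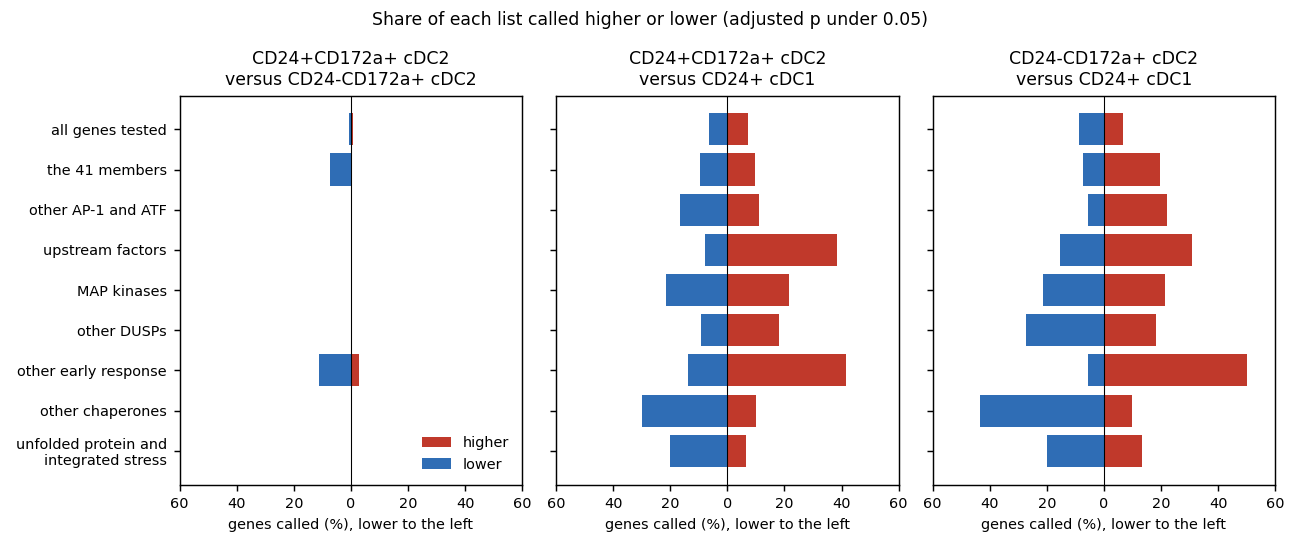
Share of genes called higher (red, to the right) or lower (blue, to the left) in the first-named population, in percent of the genes measured, for all genes, the 41 members and 7 related lists, in the 3 comparisons. Against cDC1, other early response genes were called mostly higher (15 and 18 of 36) and the called ones among other chaperones mostly lower (9 and 13 of 30), while 7.32% of the members were called, all lower, between the cDC2 populations. Of all genes, 13.6% and 15.7% were called against cDC1 and 1.46% between the cDC2 populations.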

How the data were processed

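RMA in Affymetrix Expression Console is named by the submitters' processing notes. The authors' deposited intensity values proved to be linear (array medians 29.5 to 30.6), and log2 was taken here. Versions and the genome build are not given in the sources used here. Depth does not apply; the number of arrays limits precision.

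Of 28853 probe sets, 21789 had 1 gene symbol in a platform annotation of GEO, 1621 had several and 5443 none. The brightest probe set over 6 arrays was kept for each of 19938 genes, with no filter. Groups came from the sample titles. The 3 comparisons were fitted together in limma 3.58.1 (R 4.3.3; 3 residual and 7.31 prior degrees of freedom, two-sided) and adjusted by Benjamini-Hochberg over all genes; the fit was first tested on simulated data. The members, lists and rules were chosen with earlier results of these data known. Differences are given for called members, and for up to 3 called genes a list with the smallest adjusted p. Alternatives were all probe sets, a brightness filter, cyclic loess, an intensity trend with robust prior, only the 2 groups compared, a block for replicate number, and omission of each array in turn. Of the listed symbols, 4 were matched through synonyms. Gene names and promoters came from RefSeq tables (GRCm38.p6). Figures used Python 3.11.15 and matplotlib 3.10.9.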

Additional observations from a re-analysis of the deposited data

How the results depend on the processing

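The 22 called differences of the members gave 264 values under the alternatives. None reversed, 185 kept the call and 79 lost it, of which 70 were in fits with 1 array left out. Jun and Ppp1r15a kept every call. An intensity trend with a robust prior called 13 members in CD24+CD172a+ cDC2 against cDC1 and 17 in CD24-CD172a+ cDC2 against cDC1, instead of 8 and 11. Between the cDC2 populations, testing all probe sets or only the 2 groups compared each called 1 member (Ier3) instead of 3. Leaving out 1 array gave 0 to 1 called members between the cDC2 populations (20 to 187 of all genes, against 291), 3 to 8 in CD24+CD172a+ cDC2 against cDC1 (1781 to 2769 of all genes, against 2718), and 3 to 8 in CD24-CD172a+ cDC2 against cDC1 (1922 to 2839, against 3137). Between the cDC2 populations, 437 of all genes were called with genes above the median only and 464 with the trend. The median member shifted there with single arrays, as given above. For the 45 differences of named genes of the other lists, an analysis added after the values were seen gave 540 values, with none reversed and 37 no longer called, 34 of these with 1 array left out.

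Equal replicate numbers deviated together only weakly over all genes (r = 0.0838 between the cDC2 populations, 0.0837 for CD24+CD172a+ cDC2 with cDC1 and 0.0242 for CD24-CD172a+ cDC2 with cDC1). The replicate numbers were therefore not taken as pairs, although r was above 0 for each pair of populations. Over the 41 members alone, which share these arrays, r was 0.414 between the cDC2 populations, 0.664 for CD24+CD172a+ cDC2 with cDC1 and 0.558 for CD24-CD172a+ cDC2 with cDC1. Hspa1a weighs most in these values, as its arrays differed by 1.24, 1.05 and 0.89, the most of any member in each population. The r without Hspa1a was not computed, so these values do not describe the members as a class. With the replicate block, 3 members were called between the cDC2 populations, 11 in CD24+CD172a+ and 12 in CD24-CD172a+ cDC2 against cDC1, and the 22 calls were all kept. The added calls, of which Hspa1a and Hsph1 are heat shock genes, were Gadd45b, Hspa1a and Hsph1 in CD24+CD172a+ cDC2 (adjusted p = 0.0495, 0.0315 and 0.0214) and Dusp2 in CD24-CD172a+ cDC2 (adjusted p = 0.0480). Signal over background of single probe sets was not examined, and dim genes are the least certain.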
